A study of Mus musculus with 24 samples.

Results

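The 10 genes described here mark the endothelium, the cell layer that lines blood and lymphatic vessels, in skin of mouse embryos at E18.5. They were taken by symbol as a named list: Pecam1, Cdh5, Kdr, Flt1, Flt4, Tek, Tie1, Prox1, Lyve1 and Pdpn. All 10 were among the 54087 gene symbols of the count table, and all 10 passed the filter on low counts that left 17094 genes to test. Poly(A) RNA of flash-frozen skin was sequenced from embryos labelled WT, HET and KO, for which the study's methods give dorsal skin and a C57BL/6 background. The KO allele is a CRISPR/Cas9 deletion of the tandem genes Dsg1c, Dsg1a and Dsg1b, which encode desmoglein 1, an adhesion protein of keratinocyte desmosomes. WT embryos carried both intact copies of the cluster, HET embryos 1 copy and KO embryos none, so that the cluster was missing from every cell of a KO embryo and not only from the epidermis. The line came from 1 founder that was backcrossed, and embryos of both sexes were used. There were 8 libraries per genotype, and libraries that shared a title number and a genotype were summed, which gave 5 columns, called replicates here, per genotype. By the form of their titles, libraries fell into title series 1 (9 libraries) and title series 2 (15 libraries). All 9 numbers of title series 1 recurred in title series 2, so values within each series are not separate evidence.

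Endothelial cells of all vessels carry PECAM-1, encoded by Pecam1, and VE-cadherin, encoded by Cdh5, at their junctions. They respond to vascular endothelial growth factors (VEGFs) through the tyrosine kinase receptors encoded by Flt1, Kdr and Flt4, and to angiopoietins through Tek, with Tie1 as its partner receptor. Lymphatic endothelium is set apart by the transcription factor Prox1, by the VEGF-C receptor Flt4, by the hyaluronan receptor Lyve1 and by podoplanin, encoded by Pdpn. In fetal skin a blood plexus and a lymphatic plexus both lie in the dermis, whereas the deleted cluster is expressed in the epidermis. Several of the 10 are not private to endothelium, since macrophages can express Lyve1 and fibroblasts and keratinocytes can express Pdpn.

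Sequence before the start site is shown for a trio of genes on which results below turn: Kdr, which followed Cdh5 from column to column, Flt1, its neighbour in the receptor family that stood apart in single columns, and Prox1, whose level in 1 HET column carried the widest spread. The sequences were taken from RefSeq on GRCm38.p6, read 5′ to 3′ on the strand of the gene and end at or just before the start site without annotated exon bases. Capitals mark GGAA and its reverse complement TTCC, the core that ETS transcription factors bind, a family to which many endothelial regulators belong.
Kdr: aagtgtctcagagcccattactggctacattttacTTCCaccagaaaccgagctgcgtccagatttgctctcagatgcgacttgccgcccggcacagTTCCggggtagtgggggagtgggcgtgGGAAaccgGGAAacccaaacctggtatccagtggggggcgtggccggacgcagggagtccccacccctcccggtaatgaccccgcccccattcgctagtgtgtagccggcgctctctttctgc
Flt1: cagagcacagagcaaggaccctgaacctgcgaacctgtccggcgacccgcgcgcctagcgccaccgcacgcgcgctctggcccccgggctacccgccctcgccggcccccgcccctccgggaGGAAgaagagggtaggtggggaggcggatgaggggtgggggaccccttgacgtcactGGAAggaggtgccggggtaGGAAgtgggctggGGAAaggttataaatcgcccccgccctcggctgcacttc
Prox1: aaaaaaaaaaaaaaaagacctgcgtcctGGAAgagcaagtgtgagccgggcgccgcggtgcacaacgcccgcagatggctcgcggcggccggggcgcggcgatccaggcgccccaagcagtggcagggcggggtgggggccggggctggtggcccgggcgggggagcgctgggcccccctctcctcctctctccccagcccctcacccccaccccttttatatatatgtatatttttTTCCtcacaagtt
The Kdr stretch is chr5:75978459-75978705 on the minus strand and is 247 bases long, the Flt1 stretch is chr5:147726012-147726261 on the minus strand, and the Prox1 stretch is chr1:190170828-190171077 on the minus strand. The core occurred 4 times before Kdr, 4 times before Flt1 and 2 times before Prox1 over both strands. It is a common string: 93.4% of 32851 mouse promoter windows held at least 1 copy, with a median of 3. On either strand, the longer string AGGAAGT, which contains the core, occurred once before Flt1 and was held by 7.69% of the windows. The string TATAAA occurred once before Flt1 and once before Prox1 and was held by 12.4%. These matches describe letters in a window and are not binding sites. The table had windows for 7 of the 10 genes, of which that of Flt4 lay wholly in annotated exon and is not shown, and Pecam1, Cdh5 and Lyve1 had none.

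Library totals ran from 8.98 M to 20.96 M counts (M, mega), and totals of the 15 summed columns from 15.3 M to 33.7 M. Summed CPM (counts scaled to 1e6, on library sizes adjusted by the trimmed mean of M-values) of the Dsg1 genes was 806 ± 112 in WT, 422 ± 51.5 in HET and 0.548 ± 0.343 in KO (SD, n = 5 columns each), so the labels matched the targeted genes. In 8 of 9 numbers that had 2 libraries, the pair gave a chi-square of 1.59 to 1.86 for each degree of freedom. In WT replicate 2 the value was 15.6, and its libraries differed in Xist (0.275 and 574 CPM) and in summed Y-linked genes (338 and 0.157 CPM). By these genes 1 library read as male and the other as female, so this column may not be 1 embryo. For this reason results are also given without that column or with its libraries apart. Summed Y-linked CPM was 282 to 409 in WT replicate 5, HET replicates 1, 4 and 5 and KO replicates 2, 3 and 4. It was 143 in WT replicate 2 and 0.146 to 0.368 in all other columns. By this measure the sexes were not balanced between genotypes, and a fit with a Y-linked covariate is among the alternatives below. The labels do not say what the title number stands for, so p-values measure the spread between columns.

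The 10 genes were all detected in every column, with 4211 counts in all for Prox1 at the low end and 40003 for Pecam1 at the high end. Read per kilobase of annotated exon (GENCODE vM21, all exons of a gene merged), WT levels fell into 3 tiers. Lyve1 stood at 25.02 ± 4.85, Cdh5 at 23.1 ± 3.26, Pdpn at 22.95 ± 3.74 and Pecam1 at 17.1 ± 2.30 CPM per kilobase (SD, n = 5), and neighbours in this tier overlapped. Tie1 at 8.60 ± 0.605, Tek at 7.59 ± 1.25 and Kdr at 6.65 ± 0.664 CPM per kilobase formed the middle tier, in which Tek overlapped with both others while every Tie1 column lay above every Kdr column, and none overlapped with a gene of the first. Flt1 at 1.97 ± 0.7095, Flt4 at 1.65 ± 0.545 and Prox1 at 1.28 ± 0.484 CPM per kilobase lay lowest and overlapped among themselves. The receptors of one family thus differed in level, Kdr above Flt1 and Flt4 in every WT column, although merged exon length counts every isoform and lowers genes with long alternative ends. The HET and KO columns had the same 3 tiers in their means, with Prox1 lowest in KO at 0.917 ± 0.154 CPM per kilobase. Of the exon bases of Prox1, 1.59% overlap an antisense gene, and none of the other 9 genes shares exon bases with another gene.

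In the comparison of KO with WT, which asks whether loss of the Dsg1 cluster changed vessel genes in the whole skin, no member of the list passed the test. Summed over the 10 genes, CPM was 507 ± 69.0 in WT, 510 ± 84.7 in HET and 510 ± 111 in KO (SD, n = 5). In the quasi-likelihood test of edgeR, 0 of 10 genes were called in KO against WT at an adjusted p of 0.1 with a log2 fold change of 1 or more in size, where 0.322% of all genes tested were called, and 0 of 10 passed the adjusted p alone, where 1.15% of all genes did. Only Lyve1 had an unadjusted p below 0.05, which is 1 of 10 genes, where 19.3% of all genes had one, and DESeq2 gave 0 and limma-voom 1 of 10. The median log2 fold change of the 10 genes was 0.03 beside -0.01 over all genes tested, with 6 estimates higher and 4 lower. In none of the 10 did the KO and WT columns separate, where 3.37% of all genes had groups without overlap. Because the RNA came from whole skin, fewer endothelial cells and less RNA per cell cannot be told apart in any of these values.

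In HET against WT, 0 of 10 genes were called or passed the adjusted p in edgeR, where 0% of all genes were called and 0% passed, and 0 of 10 had an unadjusted p below 0.05, where 1.58% of all genes had one; DESeq2 and limma-voom also gave 0. No gene had groups without overlap, where 0.374% of all genes did. In KO against HET, 0 of 10 genes were called, where 0.181% of all genes were, and 0 of 10 passed the adjusted p, where 0.333% did. Prox1 alone had an unadjusted p below 0.05, 1 of 10 where 16.0% of all genes had one, with 1 in DESeq2 and 0 in limma-voom. No gene had KO and HET columns apart, where 2.25% of all genes did. The median over the 10 genes was 0.05 in HET against WT and -0.08 in KO against HET. The comparisons share their columns and are not separate evidence.

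**Figure D1:**
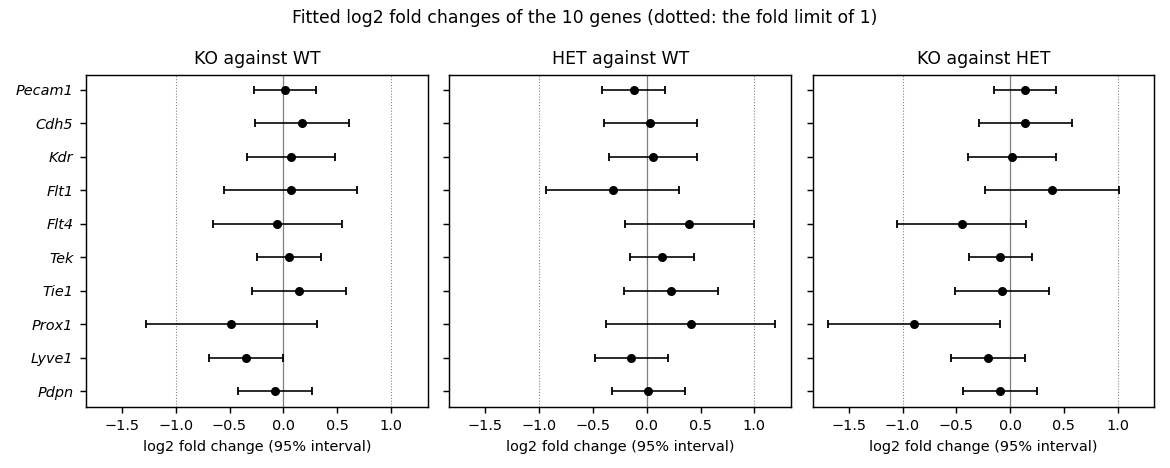
Fitted log2 fold changes of the 10 genes (points) with 95% intervals (bars) in KO against WT, HET against WT and KO against HET, with the fold limit of 1 dotted. Most intervals span 0 and the widest belong to Prox1, which reached from -1.28 to 0.32 in KO against WT.

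Among the genes shared by all endothelium, Pecam1 had an estimate near 0 in KO against WT. Its CPM in WT was 98.7, 106, 105, 130 and 92.4 in replicates 1 to 5, in HET 102, 114, 103, 72.8 and 97.4, and in KO 126, 89.3, 93.6, 135 and 95.6. The log2 fold change in KO against WT was 0.02 (SE 0.14, 95% interval -0.27 to 0.31, edgeR adjusted p = 0.954), and -0.07 without KO replicate 4. For Cdh5, which holds endothelial junctions together, the WT values were 82.9, 100, 116, 102 and 84.1 CPM. The HET columns gave 101, 107, 130, 63.4 and 94.7 CPM and the KO columns 121, 85.2, 92.3, 168 and 80.7 CPM. All 3 groups overlapped, with the lowest column in HET (replicate 4) and the highest in KO (replicate 4). The log2 fold change of Cdh5 in KO against WT was 0.17 (SE 0.20, 95% interval -0.26 to 0.61, edgeR adjusted p = 0.653). It was -0.03 without KO replicate 4, which is 1 library.

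The VEGF receptors of blood vessels gave a like picture with 2 columns standing out. Kdr, the main signalling receptor for VEGF-A, measured 55.1, 58.7, 64.4, 67.9 and 54.0 CPM in WT, 58.7, 69.6, 78.8, 44.0 and 61.0 CPM in HET and 70.4, 51.7, 53.9, 97.8 and 42.04 CPM in KO. Its KO columns held both the highest and the lowest value of all 15, and the log2 fold change in KO against WT was 0.07 (SE 0.19, edgeR adjusted p = 0.857). Without KO replicate 4 that estimate was -0.14. Flt1, which binds VEGF-A tightly and signals weakly, measured 22.8, 23.7, 22.1, 43.7 and 20.95 CPM in WT, 22.6, 17.8, 28.3, 16.0 and 22.2 CPM in HET and 23.1, 19.4, 24.1, 54.0 and 19.7 CPM in KO. Apart from WT replicate 4 and KO replicate 4, every column lay between 16.0 and 28.3 CPM. The log2 fold change of Flt1 was 0.07 (SE 0.29, edgeR adjusted p = 0.914) in KO against WT. It was 0.32 without WT replicate 4, -0.31 without KO replicate 4 and -0.42 within title series 1, so its direction rests on those columns.

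The angiopoietin receptors also overlapped between genotypes. Tek ranged from 27.3 to 41.7 CPM in WT, from 33.3 to 46.03 CPM in HET and from 30.2 to 47.3 CPM in KO, the narrowest spread of the list with a highest value 1.73 times the lowest. Its log2 fold change in KO against WT was 0.05 (SE 0.14, 95% interval -0.24 to 0.35, edgeR adjusted p = 0.862). Tie1, which pairs with the Tek product, ranged from 39.03 to 45.1 CPM in WT, from 30.6 to 71.0 CPM in HET and from 33.04 to 71.4 CPM in KO. WT columns of Tie1 were close together and both other groups reached past them on either side, and the log2 fold change in KO against WT was 0.15 (SE 0.21, edgeR adjusted p = 0.7098), or -0.05 without KO replicate 4.

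**Figure D2:**
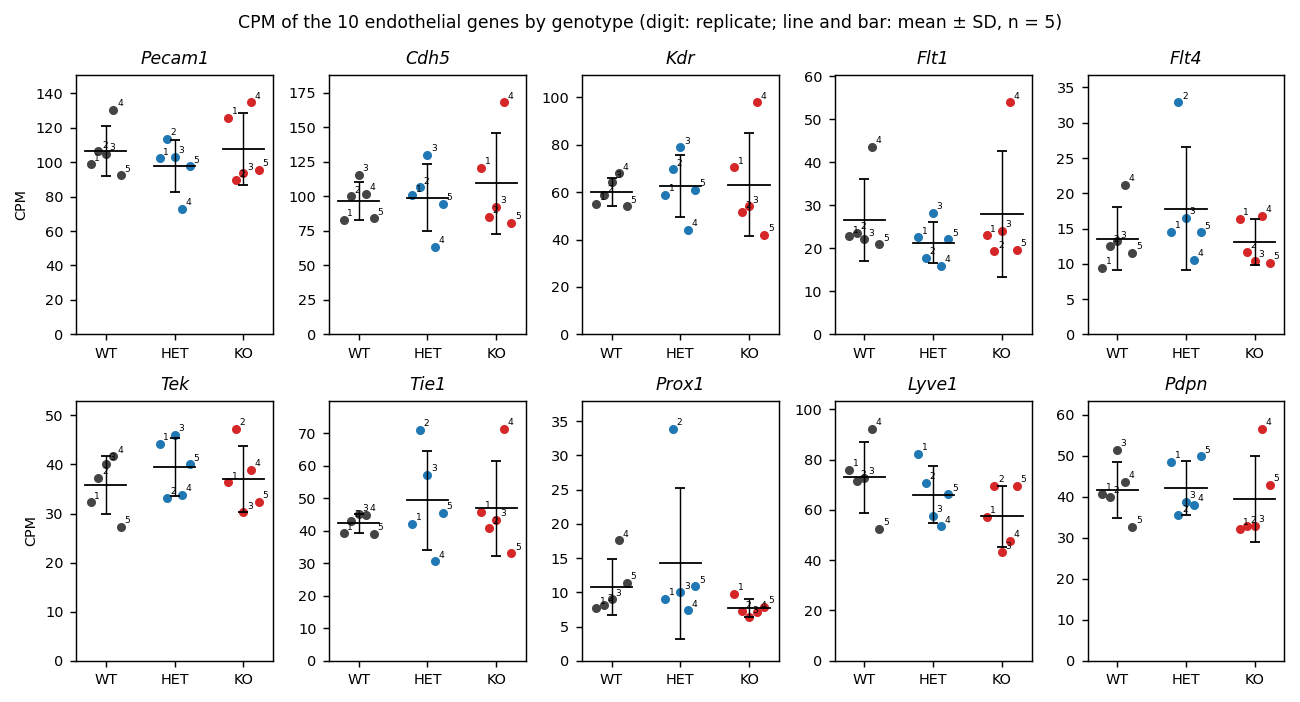
CPM of each gene in the 15 columns by genotype, with the replicate number beside each point and the mean ± SD (n = 5) as line and bar. The groups overlap for all 10 genes, and HET replicate 2 in Prox1 and Flt4 and WT replicate 4 and KO replicate 4 in Flt1 lie far from the rest of their groups.

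The lymphatic genes had estimates of unlike size, and none passed the test. Prox1, the transcription factor that sets lymphatic identity, measured 7.76, 8.14, 8.98, 17.6 and 11.4 CPM in WT, 9.02, 33.9, 10.01, 7.35 and 10.9 CPM in HET and 9.80, 7.23, 6.38, 7.14 and 7.90 CPM in KO. KO columns were low and close together but overlapped with WT, while 1 HET column was 3.96 times the median of the other 14. The log2 fold change of Prox1 was -0.48 (SE 0.37, 95% interval -1.28 to 0.32, edgeR adjusted p = 0.479) in KO against WT and -0.89 (SE 0.37, edgeR adjusted p = 0.269) in KO against HET. Without HET replicate 2, KO against HET was -0.28 and HET against WT turned from 0.41 to -0.21. KO against WT stayed at -0.48 there, with an edgeR unadjusted p of 0.0341 (edgeR adjusted p = 0.235). With all columns these edgeR values were 0.216 and 0.479. All genotypes shared 1 fit, so HET replicate 2 entered the SE and interval given for KO against WT. Without WT replicate 4, KO against WT was -0.23. Flt4, the receptor through which VEGF-C drives lymphatic growth, measured 9.41, 12.6, 13.2, 21.2 and 11.5 CPM in WT, 14.5, 32.9, 16.6, 10.6 and 14.5 CPM in HET and 16.3, 11.7, 10.4, 16.8 and 10.1 CPM in KO. The groups overlapped, and HET replicate 2 and WT replicate 4 were again the highest columns. Its log2 fold change was -0.06 (SE 0.28, edgeR adjusted p = 0.928) in KO against WT and 0.39 (SE 0.28, edgeR adjusted p = 1.00) in HET against WT, the latter being 0.05 without HET replicate 2.

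Lyve1, the hyaluronan receptor of lymphatic capillaries that some tissue macrophages share, had the smallest adjusted p of the list in KO against WT. Its CPM was 76.0, 71.5, 72.8, 92.3 and 52.6 in WT, 82.3, 70.9, 57.8, 53.5 and 66.2 in HET and 57.3, 69.7, 43.1, 47.7 and 69.7 in KO. In 4 of 5 WT columns Lyve1 lay above every KO column, and WT replicate 5 was inside the KO range. Of these 4, WT replicate 2 was summed from libraries of 88.0 and 62.1 CPM. The second of them lay within the range of the KO libraries, 42.5 to 70.6 CPM. The fold in KO against WT was 0.787 (log2 -0.35, SE 0.16, 95% interval -0.69 to -0.00, edgeR adjusted p = 0.256). The estimate was -0.35 without WT replicate 2. It was -0.59 and -0.28 within title series 1 and title series 2, which share title numbers. Of 9 macrophage markers, 7 had lower and 2 had higher estimates in KO against WT and 0 passed the adjusted p, with a summed CPM of 260 to 436 in WT and 244 to 452 in KO, while all 6 dermal fibroblast markers had lower estimates with a median log2 of -0.24. The part of either cell type in the Lyve1 value was not tested beyond a fit with the dermal markers as a covariate, in which it was -0.25 (edgeR adjusted p = 0.473). Pdpn, which lymphatic endothelium and several skin cells make, ranged from 32.6 to 51.4 CPM in WT, from 35.5 to 49.9 CPM in HET and from 32.3 to 56.6 CPM in KO, and its log2 fold change in KO against WT was -0.08 (SE 0.16, edgeR adjusted p = 0.807). It was -0.24 without KO replicate 4, -0.48 within title series 1 (edgeR adjusted p = 0.551) and -0.09 within title series 2.

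The spread between columns was widest for the genes with the lowest levels. The highest of 15 columns was 5.31 times the lowest for Prox1, 3.49 times for Flt4 and 3.37 times for Flt1, and 1.85 times for Pecam1 and 1.75 times for Pdpn. High values recurred where a column had paired libraries, since those of HET replicate 2 gave 34.1 and 33.6 CPM for Prox1 and 31.9 and 34.8 CPM for Flt4. The paired libraries of WT replicate 4 gave 18.1 and 16.1 CPM for Prox1 and 43.5 and 42.8 CPM for Flt1. KO replicate 4 had 1 library and no such check.

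HET replicate 2 stood out for some of the lymphatic genes and not for others. Of 8 other lymphatic genes, 3 were at least 2 times the median of the other 14 columns there. Ccl21a, a gene for the chemokine CCL21, was at 56.1 CPM, 7.97 times that median, and at 55.9 and 56.6 CPM in the libraries of that column. Foxc2, a transcription factor of lymphatic collectors and valves, was at 4.84 CPM (3.35 times), and Mmrn1, a secreted protein of lymphatic endothelium, was at 65.7 CPM (2.72 times). Gja4, which encodes a connexin of arteries and of lymphatic valves, was at 43.4 CPM (3.65 times). Among the remaining lymphatic genes, Reln stood at 1.98 times, Clca3a1 at 1.71 times and Sox18 at 1.48 times, while Itga9 and Gata2 were at 0.852 and 0.857 times. Lyve1 and Pdpn lay near the other columns, at 1.04 and 0.879 times, and Pecam1, Cdh5 and Kdr were at 1.13, 1.10 and 1.19 times. Over the 12060 genes with a mean of at least 5 CPM, 34 genes (0.282%) were at 2 times or more in that column. Foxc2, with a mean of 1.84 CPM in WT, 2.20 in HET and 1.25 in KO, lay outside that set. HET replicate 2 is 1 column, read without a test, and what set it apart was not tested.

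**Figure D3:**
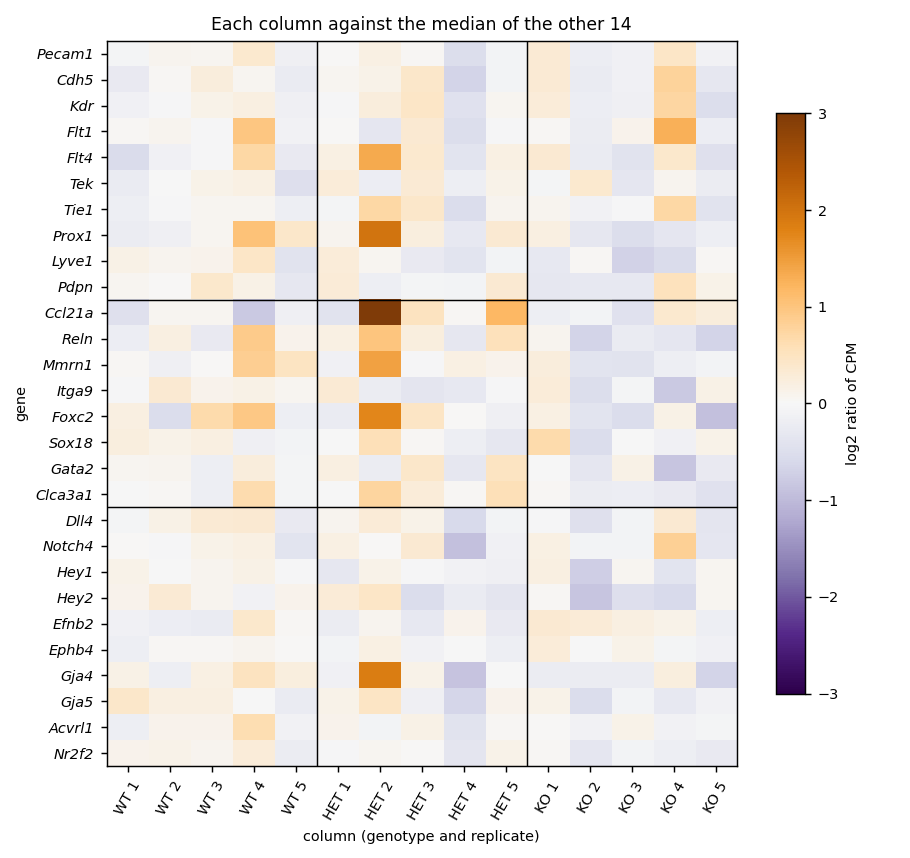
Each column's CPM over the median of the other 14 columns, as a log2 ratio, for the 10 genes (top), 8 other lymphatic genes (middle) and 10 artery and vein genes (bottom). HET replicate 2 is high in Prox1, Flt4, Ccl21a, Mmrn1, Foxc2 and Gja4, reaching 7.97 times for Ccl21a, and near the other columns in Lyve1, Pdpn and Cdh5.

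WT replicate 4 and KO replicate 4 were the other columns that stood apart. In WT replicate 4, Flt1 was 1.95 and Prox1 2.05 times the median of the other columns, beside Vegfa, the ligand of Flt1 and Kdr, at 186 CPM (2.37 times) and Angpt2, a Tek ligand of remodelling vessels, at 38.4 CPM (2.12 times), whereas Kdr was at 1.16 and Cdh5 at 1.05 times. Several lymphatic genes high in HET replicate 2 were also above the median there, Foxc2 at 1.94, Reln at 1.87, Mmrn1 at 1.82, Flt4 at 1.64, Clca3a1 at 1.57 and Gja4 at 1.42 times, while Ccl21a was at 0.571 times. In that column 65 of 12060 genes (0.539%) were at 2 times or more. In KO replicate 4, 1 of the 10 genes was at 2 times the median of the others or more, Flt1 at 2.41 times. Cdh5 was at 1.73, Kdr at 1.67 and Tie1 at 1.65 times. Of 26 other endothelial genes, 1 was at 2 times or more, Vwf at 78.7 CPM (2.75 times). KO replicate 4 was the highest of the 15 columns for 6 of the 10 genes and for 11 of those 26. The same count over all genes was not made. Of 14 ligands and co-receptors, 3 were at 2 times or more. These were the sparse Adamts3 (447 counts in all) at 3.58, Angpt1 at 2.75 and Vegfb at 2.04 times. Prox1 at 0.794 and Lyve1 at 0.685 times were below that median. This column departed from the rest in many genes, with 547 of 12060 (4.54%) at 2 times or more. Its summed dermal fibroblast markers were the lowest of all columns at 14688 CPM, where the other KO columns reached up to 29515, and Ppbp, a chemokine of platelets, was at 248 CPM there while no other column passed 3.12. Among the other platelet markers Gp9, with 105 counts in all, was at 2.29 times the median there, Pf4 at 0.965, Gp1bb at 0.821 and Itga2b at 0.481 times, and the part of any of these in the endothelial values was not tested. Without KO replicate 4, the median of the 10 genes in KO against WT was -0.15, with estimates from -0.46 for Prox1 to 0.03 for Tek.

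Whether the 10 genes rose and fell together from column to column was asked with 45 pairwise correlations of log2(CPM + 0.5) over the 15 columns, each with a permutation test of 100000 resamples and with adjustment over the 45 pairs. In 9 pairs both Pearson's r and Spearman's rho passed an adjusted p of 0.05, all positive. They linked Pecam1, Cdh5, Kdr, Tie1 and Flt4. Cdh5 and Kdr were the closest pair with r = 0.94 (adjusted permutation p = 0.000900) and rho = 0.94 (adjusted permutation p = 0.000450), and r was 0.89 without the 2 columns farthest from the median of Cdh5. Kdr and Tie1 followed with r = 0.89 and rho = 0.91 and 0.82 without such columns, then Cdh5 and Tie1 with r = 0.84 and rho = 0.91, Pecam1 and Cdh5 with 0.83 and 0.83, and Pecam1 and Kdr with 0.81 and 0.85. Flt4 went with Tie1 (r = 0.77, rho = 0.81), Kdr (0.65 and 0.86) and Pecam1 (0.64 and 0.76). The pair of Pecam1 and Tie1 (r = 0.70, rho = 0.76) was the only one of the 9 with r below 0.5 once 2 columns were left out, at 0.42. Taking off the genotype means left Cdh5 and Kdr at 0.96, and 1 library for each number, all of title series 2, gave 0.94. All columns share tissue make-up and depth, so these values describe the columns.

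The lymphatic genes were not tied together in the same way. Prox1 and Flt4 had r = 0.86 (adjusted permutation p = 0.00324) but rho = 0.57 (adjusted permutation p = 0.0974), and r was 0.44 without HET replicate 2 and WT replicate 4, on which the relation rests. Lyve1 with Prox1 gave r = 0.39, Lyve1 with Flt4 0.25 and Lyve1 with Pdpn 0.28, and Pdpn with Prox1 gave -0.11; none of these passed the adjusted p of 0.05. Lyve1 had r = -0.12 with Cdh5 and -0.10 with Kdr. In all, 7 of 45 pairs had a negative r, and each of them held Lyve1 or Prox1.

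**Figure D4:**
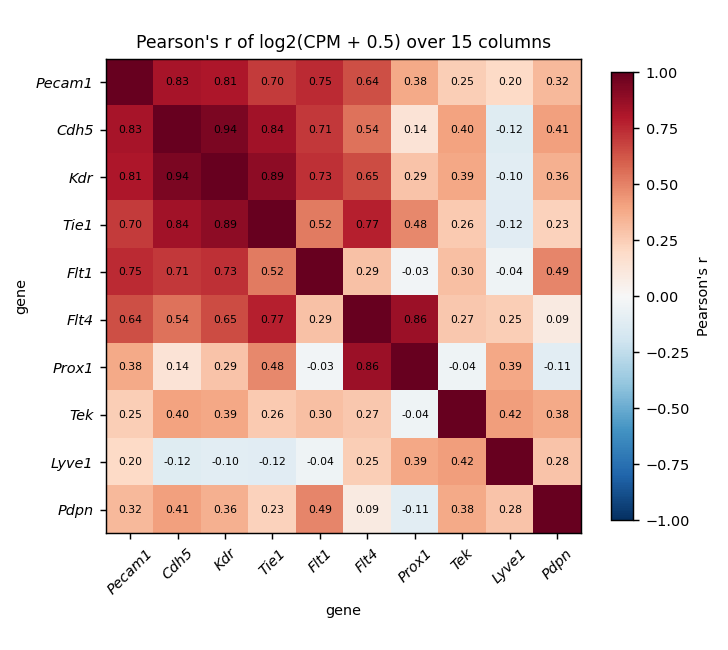
Pearson's r of log2(CPM + 0.5) over the 15 columns for each pair of the 10 genes. Pecam1, Cdh5, Kdr and Tie1 form a block with r from 0.70 to 0.94. Flt4 and Prox1 are linked at 0.86, or 0.44 without HET replicate 2 and WT replicate 4. Lyve1 and Pdpn have r below 0.5 with every other gene.

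Genes with a pattern most like that of Cdh5, Prox1 or Pdpn were looked for among all 17094 genes by Pearson's r over the 15 columns, as a description. The nearest to Cdh5 were Kdr (r = 0.94), the endothelial Notch receptor Notch4 (0.94), Podxl (0.93), which encodes podocalyxin, Cd93 (0.92) and Ctdnep1 (0.91). The nearest to Prox1 were Mmrn1 (0.95), Dtx1 (0.95), the connexin gene Gjd3 (0.90), the oxytocin receptor gene Oxtr (0.89) and Klhl4 (0.87), with Flt4 in eighth place. Prox1 was highest in HET replicate 2 and WT replicate 4, where Mmrn1 was also high (2.72 and 1.82 times the median of the other columns). The ranking was not repeated without those columns, which lowered the r of Flt4 to 0.44. For Pdpn, Adam23 led with 0.83 and the rest were at 0.77 or below.

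Ligands and co-receptors of these receptors were read from a list of 14. In KO against WT, 0 of 14 passed the adjusted p, 8 estimates were higher and 6 lower, and the median was 0.03 on the log2 scale. Vegfa stood at 96.6 CPM in WT, 86.4 in HET and 85.1 in KO, and Vegfc at 6.17, 5.71 and 5.57. Angpt2, the angiopoietin that destabilises vessels, had the smallest adjusted p, with a mean ± SD over 5 columns of 23.5 ± 8.47 CPM in WT and 15.1 ± 3.42 CPM in KO, log2 -0.63 (SE 0.20, edgeR adjusted p = 0.131). Its groups overlapped, and its highest value was that of WT replicate 4. Angpt4, a further Tek ligand at 1.25 CPM in WT, had log2 -0.80 (edgeR adjusted p = 0.170), and Figf, the older symbol of the lymphatic growth factor gene Vegfd, had log2 -0.25 (edgeR adjusted p = 0.221). The Tek ligand Angpt1 went the other way, at 6.98 CPM in WT, 10.1 in HET and 10.9 in KO. Its log2 value was 0.64 (SE 0.41, edgeR adjusted p = 0.393). It was 2.14, 2.75 and 3.03 times the median of the other columns in KO replicates 2 and 4 and HET replicate 3.

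Of 26 other endothelial genes, 1 passed the adjusted p in KO against WT, where 1.15% of all genes did, and 18 estimates were lower and 8 higher with a median log2 of -0.07. It was Sox7, a transcription factor of the SOXF group that acts in blood vessel endothelium. Sox7 measured 16.4, 21.2, 19.9, 20.9 and 17.2 CPM in WT, 20.9, 23.9, 21.2, 19.97 and 22.2 CPM in HET and 30.0, 29.8, 24.6, 38.9 and 20.9 CPM in KO. In 4 of 5 KO columns it lay above every WT column. The fold was 1.51 (log2 0.59, SE 0.14, edgeR adjusted p = 0.0891), below the fold limit of a call, and over 29 alternatives the log2 value stayed between 0.42 and 0.69 and the adjusted p at 0.1 or below in 13. Without KO replicate 4 it was 0.46 (edgeR adjusted p = 0.180). Chosen after their values were seen, Egfl7 and Sox17 were the 2 genes of this list whose groups did not overlap, where 3.37% of all genes had such groups. Egfl7, a secreted endothelial protein gene that hosts a microRNA, measured 45.3 to 49.8 CPM in WT and 30.2 to 38.1 CPM in KO, with log2 -0.51 (SE 0.13, edgeR adjusted p = 0.102), between -0.63 and -0.47 over 29 alternatives with an adjusted p of 0.1 or below in 14. Sox17, the arterial member of the SOXF group, measured 8.57 to 13.2 CPM in WT and 7.48 to 8.38 CPM in KO, with log2 -0.40 (SE 0.14, edgeR adjusted p = 0.156). Sox18, the third gene of that group, had log2 0.01 (edgeR adjusted p = 0.989).

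None of the remaining vessel lists passed the adjusted p in KO against WT. The 10 artery and vein genes had a median log2 of -0.19, with 7 estimates lower and 3 higher. Named by smallest p, the venous factor gene Nr2f2 was at -0.22 (edgeR adjusted p = 0.254), the arterial factor gene Hey2 at -0.40 (0.267) and the arterial connexin gene Gja5 at -0.25 (0.399). The 8 other lymphatic genes had a median of -0.29, with 6 of 8 lower. Reln stood at 13.3 CPM in WT and 9.30 in KO (log2 -0.51, edgeR adjusted p = 0.244), Clca3a1 at log2 -0.32 (0.317) and Gata2 at -0.26 (0.402). The 4 activation genes, which endothelium shows in inflammation, had a median of 0.15, with the selectin genes Sele at 0.42 (edgeR adjusted p = 0.518) and Selp at 0.34 (0.599) and Vcam1 at -0.18 (0.501). The 10 mural genes, of pericytes and smooth muscle around vessels, had a median of -0.18, with 7 estimates lower and 3 higher. Those of smallest p were Higd1b at -0.70 (edgeR adjusted p = 0.144), Rgs5 at -0.41 (0.169) and Kcnj8 at -0.37 (0.178). Over all genes tested the median was -0.01. Of the 113 tested genes of these vessel lists and of the cell markers below, 1 passed the adjusted p in KO against WT (17 at an unadjusted p below 0.05), 0 in HET against WT (4) and 0 in KO against HET (19) in edgeR, where DESeq2 gave 6, 0 and 5 and limma-voom 2, 0 and 0. Over all genes tested, 1.15%, 0% and 0.333% passed the adjusted p and 19.3%, 1.58% and 16.0% had an unadjusted p below 0.05 in edgeR. Shares over all genes were worked out for this edgeR fit only. The counts by DESeq2 and limma-voom, here and above, thus have no share to be read against.

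Markers of other cells in the skin gave the frame for these values, and 0 of them passed the adjusted p in KO against WT. The 8 keratinocyte markers had a median log2 of 0.20, with 7 estimates higher and 1 lower. Col17a1 was at 0.44, Itga6 at 0.33 and Krt1 at 0.32, and the summed CPM was 54163 to 74061 in WT and 66851 to 94199 in KO. The 6 dermal fibroblast markers had a median of -0.24, with Lum at -0.36, Col1a1 at -0.32 and Dcn at -0.15, and a sum of 22424 to 36603 CPM in WT and 14688 to 29515 CPM in KO. The 9 macrophage markers had a median of -0.10, with 7 estimates lower and 2 higher, Aif1 at -0.31, Cd68 at -0.27 and Mrc1 at -0.14. The 7 erythroid markers, of red blood cells, had a median of 0.55 with 7 of 7 higher, Slc4a1 at 0.80 and Alas2 at 0.57. Their smallest edgeR adjusted p was 0.350, and their sums overlapped, at 1652 to 5154 CPM in WT and 3106 to 9045 CPM in KO. Of 5 platelet markers 4 were tested, Gp1bb being too low, with a median of -0.12, Pf4 at -0.29, Itga2b at -0.35 with groups that did not overlap, and Ppbp at 5.37 from the 1 column named above. The 7 skeletal muscle markers had a median of -0.09, with Mylpf at -0.19, Myh3 at -0.20 and the sparse Tnnc2 (177 counts in all) at 0.43. The part of any of these cell types in the vessel values was not tested, apart from fits with dermal or muscle markers as a covariate. With the dermal covariate the 10 endothelial genes had estimates of -0.58 (Prox1) to 0.09 (Tek) in KO against WT, a median of -0.11, and a smallest edgeR adjusted p of 0.473.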

How the data were processed

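The deposited table holds raw counts, whole numbers of reads per gene symbol in 24 libraries; the authors made poly(A) strand-preserving libraries, and the submitters' processing notes name STAR, HTSeq and hg19, a human build, although the symbols are those of mouse. Versions, the annotation and the use of strand are not given in the sources used here, so positions were taken from GENCODE vM21 on GRCm38 and sequences from RefSeq. The members and the gene lists were chosen with earlier results of these data known. Libraries sharing a title number and genotype were summed to 15 columns. Genes kept by filterByExpr (17094 of 54087 symbols) were tested by quasi-likelihood in edgeR 4.0.16 under R 4.3.3 (TMM factors, robust, all 3 genotypes in 1 fit), with Benjamini-Hochberg adjustment over all of them. SEs came from the log2 fold change and its F statistic. A call was an adjusted p of 0.1 or below with a log2 fold change of 1 or more in size, the thresholds used by the study. CPM is counts scaled to 1e6 on the TMM-adjusted library size, and per library of the plain total. Counting precision follows depth (8.98 M to 20.96 M counts per library); without molecular identifiers, reads cannot be read as separate molecules. Named were the 10 genes and, from each other list, genes with an adjusted p of 0.1 or below or else the 3 with the smallest p in KO against WT, and for Cdh5, Prox1 and Pdpn the 5 genes of highest correlation. Of the genes so picked, 1 is not reported here. Vegfa, Vegfc, Angpt1, Egfl7, Sox17, Sox18 and genes named for single columns were chosen after their values were seen. Alternatives included DESeq2 1.42.0, limma-voom (limma 3.58.1), other filters, factors, covariates and library sets, and leaving out each column; those chosen after seeing the data were correlations on title series 2 alone and without HET replicate 2 or KO replicate 4. Scripts were tested on simulated data.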

Additional observations from a re-analysis of the deposited data

Results flagged for a closer look

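In 4 of 30 groups of 5 columns (10 genes in 3 genotypes), the highest column lay farther from the rest than Dixon's 95% limit for the gap over the range; about 1 in 20 groups, or 1.5 of 30, would do so by chance. The gap was 0.868 of the range for Prox1 and 0.733 for Flt4 in HET, both in replicate 2. For Flt1 it was 0.880 in WT, in replicate 4, and 0.863 in KO, in replicate 4.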

How the results depend on the processing

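The 10 genes gave 0 calls in each of the 3 comparisons under all 29 alternatives and under the other thresholds tried. Of 870 values of single genes, 54 had another sign than the value reported and 0 passed the adjusted p, with a smallest adjusted p of 0.142 (edgeR, Lyve1, KO against WT without KO replicate 5). The median of the 10 genes ranged from -0.18 to 0.12 in KO against WT, from 0.00 to 0.16 in HET against WT and from -0.29 to -0.01 in KO against HET. Single columns moved Prox1 and Flt4 (HET replicate 2), Flt1 (WT replicate 4 and KO replicate 4) and Pecam1, Kdr, Cdh5, Tie1 and Pdpn (KO replicate 4), as given above; within title series 1, Prox1 was -1.18 in KO against HET. Among the other lists, the count in KO against WT, 1 gene as reported, was 6 with DESeq2 and 5 with the libraries of WT replicate 2 apart or with the muscle covariate. It was 2 with RLE factors, no filter, limma-voom or title series 2 alone, and 0 with title series 1 alone, the Y-linked covariate or the covariate for both title series. Leaving out 1 column gave 0 to 10, the highest without KO replicate 5. In KO against HET, 0 as reported, it was 5 with DESeq2, 1 with the muscle covariate and 0 to 7 with 1 column left out. The share of all genes that passed under each of these settings was not worked out, so these counts have no background. The cause of their shifts was not tested. Sox7 kept its direction in all 29 and lost the adjusted p in 16. No paired analysis was possible because the title numbers are not shared between genotypes. Depth limits the least counted genes, such as Prox1 among the 10 and Foxc2, Angpt4 and Sele in the lists.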
